A study of Homo sapiens with 3 samples.

Results

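MET and MST1R are the genes of the 2 human receptors of the MET family of tyrosine kinases, and both were found by symbol, each on 1 row, in a deposited table of 30866 gene symbols. MET binds hepatocyte growth factor, the product of HGF, and MST1R, also called RON, binds macrophage-stimulating protein, the product of MST1. Both ligands are secreted as inactive precursors and cut into the active form by serine proteases, and the receptors then signal through docking proteins to the RAS-ERK and PI3K pathways. In lung cancers that depend on a mutated EGF receptor, extra copies of MET are a known way in which cells keep ERBB3 and PI3K signalling while the EGF receptor is inhibited, which is the setting in which MET inhibitors such as crizotinib are combined with erlotinib. Crizotinib also inhibits MST1R, ALK and ROS1.

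The 3 populations compared were all HCC827, an established human lung adenocarcinoma line with an activating EGFR deletion, carrying the ClonTracer library of DNA barcodes and kept as a polyclonal pool. The vehicle population had 0.1% DMSO for 4 days. The erlotinib-resistant population had 2 µM erlotinib, an EGF receptor kinase inhibitor, for 47 days, and the dual-resistant population was this erlotinib-resistant population after 10 days in 2 µM erlotinib plus 0.2 µM crizotinib. Each population was sequenced as 1 library, so no spread between replicates is known, no difference below has a test, and the drug, the length of treatment and the selection of subpopulations cannot be told apart. The labels do not say whether drug was present when RNA was taken.

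Levels are given as FPKM (fragments scaled to transcript length and library size), so that genes can be set side by side within a library. Differences between libraries are log2 differences of FPKM + 1, and a gene is called higher or lower at a log2 difference of 1 (2-fold) or more, by size alone. The first step of treatment is the erlotinib-resistant library against vehicle, and the second step the dual-resistant library set against the erlotinib-resistant one. Where 3 values are listed for a gene, they are in the order vehicle, erlotinib-resistant, dual-resistant. A gene entered the comparisons if any of the libraries had 1 FPKM or more. The table holds no counts. From the smallest values of single-exon genes, 1 FPKM in a transcript of 1 kb was worth roughly 67.6, 47.0 and 43.1 fragments. The FPKM values summed to between 494817 and 596084 per library. Of 20 epithelial markers, 19 or 20 reached 1 FPKM in each library, with summed levels of 7878, 6870 and 2754 FPKM. Of 13 lung lineage markers, 9, 8 and 4 reached 1 FPKM, with summed levels of 300, 169 and 73.8 FPKM. The lung lineage factor NKX2-1 stood at 56.0, 40.0 and 28.4 FPKM and NAPSA at 147, 81.4 and 10.1. Among surfactant genes of alveolar cells, SFTPA2 stood at 11.8, 1.61 and 0.252 FPKM and SFTPC was listed at 0 in all 3 libraries. Of the 10 that reached 1 FPKM in any library, 7 were lower and 1 higher in dual-resistant than in vehicle. Over all genes 10.4% were lower and 11.0% higher there. Of 8 endothelial markers none reached 1 FPKM. Of 10 leukocyte markers CD68 (45.5 to 115 FPKM) and, in vehicle, CD14 did so, while CD3E and MS4A1 were listed at 0 throughout. Of 8 fibroblast markers, 1, 1 and 3 reached 1 FPKM, with PDGFRA listed at 0 in all 3.

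MET RNA was abundant before selection, several-fold higher in the erlotinib-resistant library and back at the vehicle level after crizotinib was added. The MET row (Entrez ID 4233) covers bases 116312459 to 116438440 of chromosome 7 in GRCh37. Its level was 98.9 FPKM with vehicle, 763 FPKM after erlotinib and 96.2 FPKM after both drugs. The erlotinib-resistant library was the high one, and the other libraries differed by 1.03-fold. By the estimate above, with the longest annotated coding transcript of 6635 bases, these levels stood on about 44000, 240000 and 28000 fragments. MST1R RNA was lower than MET RNA in every library, and low in the dual-resistant library only. The MST1R row (Entrez ID 4486) covers bases 49924436 to 49941306 of chromosome 3. Its level was 11.8 FPKM with vehicle, 9.46 FPKM after erlotinib and 1.67 FPKM after both drugs, on about 3600, 2000 and 330 fragments for a transcript of 4536 bases. MET thus exceeded MST1R by 8.40-fold, 80.7-fold and 57.7-fold in FPKM. The last ratio rests on the low MST1R level and is 36.4 when 1 FPKM is added to both values. The 1 other row that overlaps MET in the table is listed at 0 in every library, and no row overlaps MST1R.

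**Figure D1:**
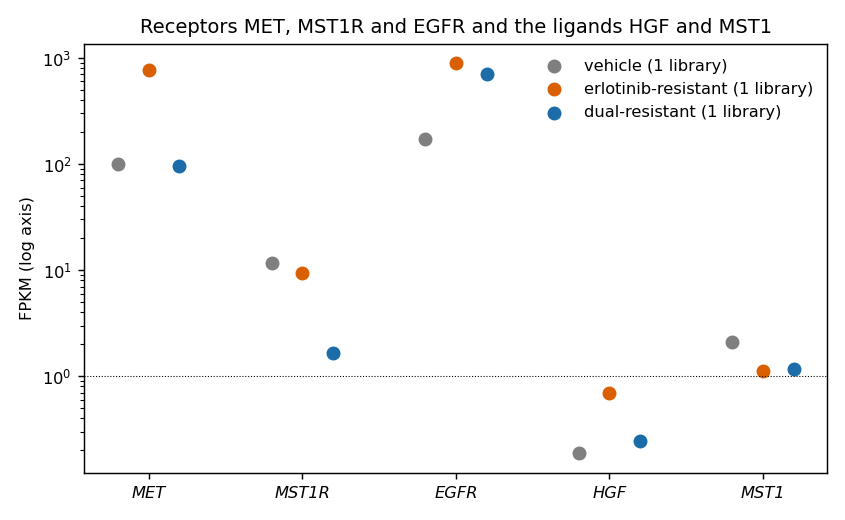
FPKM on a log axis (vertical) of the receptor genes MET, MST1R and EGFR and the ligand genes HGF and MST1 (horizontal), 1 point per library and no error bars because each population has 1 library; the dotted line marks 1 FPKM. MET is high in the erlotinib-resistant library (763 FPKM) and alike in the other libraries (98.9 and 96.2), MST1R is low in the dual-resistant library (1.67), and HGF lies under 1 FPKM in all 3.

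The sequence just before each gene's start is shown because the RNA levels of the 2 related receptors parted here. Both runs are the 250 bases before the RefSeq start, on the gene's own strand and read 5′ to 3′, from build GRCh38.p14 (chr7:116671946-116672195, plus strand, for MET and chr3:49903874-49904123, minus strand, for MST1R). That build is not the one of the expression table, and which start these cells used was not measured. Capitals mark GGGCGG or its reverse complement CCGCCC, the core of the GC box bound by SP1.
MET: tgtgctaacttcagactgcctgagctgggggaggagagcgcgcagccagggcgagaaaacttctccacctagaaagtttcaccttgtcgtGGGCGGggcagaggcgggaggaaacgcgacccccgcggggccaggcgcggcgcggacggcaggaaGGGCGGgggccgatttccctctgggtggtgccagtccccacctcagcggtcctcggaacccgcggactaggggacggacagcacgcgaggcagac
MST1R: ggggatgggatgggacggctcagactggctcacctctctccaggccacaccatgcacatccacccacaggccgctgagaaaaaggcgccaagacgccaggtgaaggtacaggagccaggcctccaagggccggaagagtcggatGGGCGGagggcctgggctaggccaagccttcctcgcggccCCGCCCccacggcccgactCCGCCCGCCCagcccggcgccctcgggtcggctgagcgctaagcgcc
Both runs are rich in G and C, at 68.4% for MET and 70.8% for MST1R. MET holds 2 matches to GGGCGG on either strand and MST1R 4, of which 2 overlap. Of 35116 windows of this length, 42.6% hold at least 1, 24.3% at least 2 and 7.63% at least 4. CACCTG or its reverse complement CAGGTG, an E-box of the kind bound by ZEB and SNAI factors, occurs once in MST1R and not in MET, against 17.5% of windows, and TATAAA or TTTATA occurs in neither, against 10.7%. These matches are descriptions of the letters, and binding was not measured.

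Among all genes, MET ranked 893 of 30831 symbols by FPKM with vehicle, 102 of 30841 after erlotinib and 768 of 30831 after both drugs. The percentage of symbols with a lower level was 97.1%, 99.7% and 97.5%. MET was therefore within the highest few percent of the table in each library, and moved up among them in the erlotinib-resistant library. MST1R ranked 6089, 7102 and 11583, with 80.3%, 77.0% and 62.4% of symbols lower. Only 12386, 12143 and 12428 symbols reached 1 FPKM, so these percentages count many symbols under that level.

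At the first step, MET was higher by a log2 difference of 2.93, which is 7.65-fold on the FPKM + 1 scale. Genes higher by at least 2-fold made up 3.81% of the 13381 compared, and MET stood at position 30 from the top. Of the 29 genes with a larger difference, 23 were listed at 0 in 1 of the libraries compared, where a 0 can be a failed estimate. MST1R differed by -0.29 there, within the limit, and 6.03% of genes were lower by at least 2-fold.

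At the second step both receptors were lower, where 7.22% of 13385 genes were lower by at least 2-fold and 10.1% higher. MET differed by -2.97 and stood at position 83 from the bottom. MST1R differed by -1.97 and stood at position 257 from the bottom. As a plain ratio of FPKM, without the added 1, the MST1R level was 5.67-fold lower and the MET level 7.93-fold lower. This comparison shares the erlotinib-resistant library with the one before, so a deviation of that library alone would enter both with opposite signs.

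Across both steps, dual-resistant against vehicle, MET differed by -0.04, whereas MST1R was lower by -2.26 on the log2 scale, at position 373 from the bottom of 13378 genes. Genes lower by at least 2-fold made up 10.4% of these and higher ones 11.0%. Scaling each library to the same sum of FPKM turned the MET difference to 0.23, still within the limit, and left MST1R at -2.05. That scaling moved the median of all genes by 0.23 as well. In bulk RNA, a smaller share of cells with MST1R RNA and less of it per cell cannot be told apart, and the same holds for MET.

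**Figure D2:**
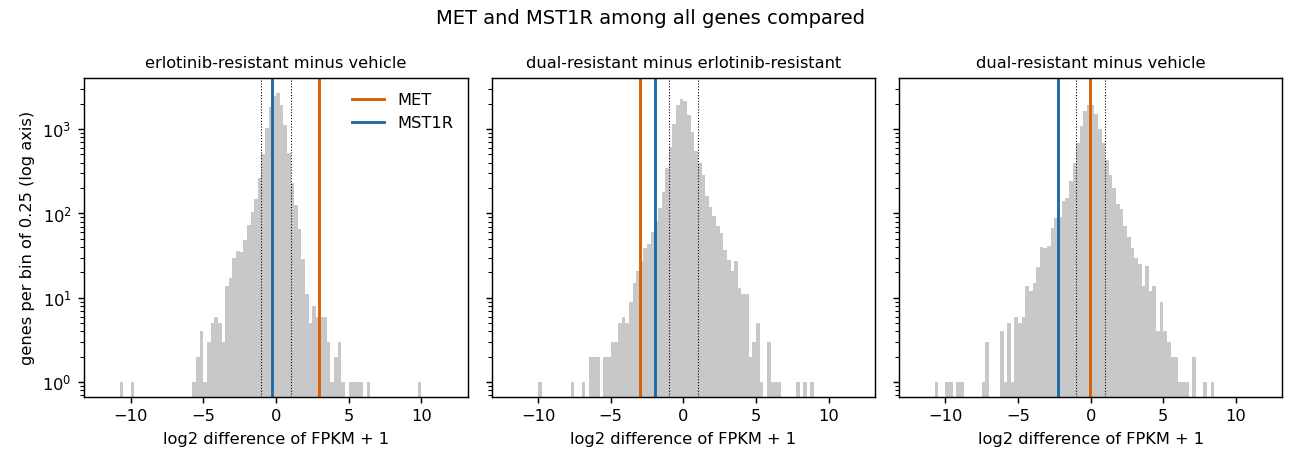
Histograms of the log2 difference of FPKM + 1 (horizontal) over all genes compared, as genes per bin on a log axis (vertical), for the 3 comparisons between single libraries; dotted lines mark a log2 difference of 1 in either direction. MET (orange) lies at 2.93, -2.97 and -0.04 and MST1R (blue) at -0.29, -1.97 and -2.26.

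Neither ligand gene was abundant. HGF (Entrez ID 3082) stood at 0.187, 0.700 and 0.242 FPKM, all under the 1 FPKM needed to enter the comparisons. MST1 (Entrez ID 4485) stood at 2.09, 1.11 and 1.18 FPKM and was within the limit in every comparison. MST1 has closely similar pseudogene copies in the human genome, and how the authors assigned reads shared with them is not given in the sources used here.

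Of the serine proteases that can activate these ligands, 8 of 13 were measured, meaning that they reached 1 FPKM in at least 1 library. At the second step 4 of them were lower and 2 higher, beside 7.22% and 10.1% of all genes, with a median log2 difference of -0.995 against -0.03 for all genes. The 2 higher, PLAT and KLK4, named after their values were seen, did not exceed 2.53 FPKM in any library, and with a filter of 5 FPKM none was higher and the median was -2.23. ST14, the membrane protease matriptase, stood at 96.3, 85.1 and 13.8 FPKM. PLAU, the urokinase plasminogen activator, stood at 203, 411 and 85.0 FPKM. HPN, the membrane protease hepsin, stood at 10.6, 2.63 and 0.215 FPKM, and TMPRSS13, another membrane protease, at 8.35, 12.3 and 1.90. All 4 were lowest in the dual-resistant library, and HPN was already lower in the erlotinib-resistant library. HGFAC, the circulating activator of hepatocyte growth factor, was at 0.0101 FPKM in vehicle and listed at 0 in the other libraries.

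The inhibitors of these proteases that are described here were lowest in the dual-resistant library. SPINT1, a membrane inhibitor of matriptase and hepsin, stood at 183, 107 and 18.9 FPKM, and its relative SPINT2 at 359, 351 and 217. SERPINA5, an inhibitor of several secreted serine proteases, stood at 3.13, 4.27 and 1.43 FPKM. Of these 3, SPINT1 and SERPINA5 were lower by at least 2-fold at the second step. ST14 and SPINT1 also belong to the epithelial marker list, of which 16 of 20 were lower and none higher in that comparison (median -2.05). Of the mesenchymal markers, 10 of 13 measured were higher and none lower (median 2.75). Over all genes, 7.22% were lower and 10.1% higher at the second step, with a median of -0.03. ESRP1, an epithelial splicing regulator, stood at 122, 141 and 7.01 FPKM, and VIM, the intermediate filament vimentin, at 7.04, 23.3 and 414. The MST1R level was low in the library in which the epithelial markers were low, and the part of this shift in the MST1R difference was not tested.

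Genes for the cutting and shedding of the receptors themselves were also compared. Of 9 measured, among them the proprotein convertase FURIN (25.9, 19.8 and 18.0 FPKM) and the sheddase ADAM10 (24.9, 35.1 and 43.6), none was past the limit in any of the 3 comparisons as deposited. Over all genes, 3.81% were higher and 6.03% lower at the first step, and 10.1% and 7.22% at the second. Against vehicle, 11.0% were higher and 10.4% lower after both drugs, so that none among 9 genes is near these shares. With libraries scaled to equal sums, 2 were higher in the dual-resistant library than in vehicle. Over all genes that scaling raised the number higher in this comparison from 1470 to 2046. PCSK7, another convertase, stood at 8.78, 8.71 and 15.9 FPKM, and PSENEN, a subunit of gamma-secretase, at 88.9, 61.8 and 56.4.

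Among co-receptors and partner proteins, all 16 were measured. CD44, whose long variants present hepatocyte growth factor to MET, stood at 23.0, 41.5 and 211 FPKM. The table has 1 level per gene and does not separate CD44 variants. ITGB1, an integrin subunit, stood at 164, 384 and 502 FPKM, and NRP2, a semaphorin co-receptor, at 11.8, 13.5 and 43.9. MUC1, a membrane mucin, went the other way, at 127, 36.1 and 10.4 FPKM. At the second step 4 of 16 were higher and 2 lower, beside 10.1% and 7.22% of all genes. At the first step 2 were higher and 2 lower, beside 3.81% and 6.03% of all genes. With libraries scaled to equal sums or equal upper quartiles, 1 was lower.

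Of 34 adaptors and signal transducers, all measured, 1 was higher and 1 lower at the first step, where 3.81% and 6.03% of all genes were. At the second step 1 was higher and none lower, beside 10.1% and 7.22%. PTPN11, the phosphatase SHP2 that binds the docking protein GAB1, stood at 26.0, 59.2 and 49.9 FPKM. DOCK1, an exchange factor for RAC, stood at 6.09, 9.01 and 16.4 FPKM, and CRK, an SH2 and SH3 adaptor, at 31.2, 39.0 and 58.8. PLCG1, a phospholipase bound by activated receptors, had no FPKM above 0 in the erlotinib-resistant library and levels of 5.89 with vehicle and 26.8 after both drugs. PLCG1 is the gene called lower at the first step and higher at the second. No fold is given for it, since 11 of 8227 genes that had 5 FPKM or more in the other libraries were also at 0 in the erlotinib-resistant one.

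Of 18 measured negative regulators of the receptors, 3 were higher and none lower at the first step, beside 3.81% and 6.03% of all genes. The second step had 3 higher and 4 lower, beside 10.1% and 7.22% of all genes. With libraries scaled to equal sums, 5 were higher at the first step. CBLC, a ubiquitin ligase of the CBL family, stood at 19.2, 36.6 and 2.96 FPKM. MUC20, a mucin that binds MET and limits its signalling, stood at 7.33, 6.60 and 0.508 FPKM, and ERRFI1, which binds and restrains the EGF receptor kinase, at 112, 222 and 62.1. PTPRJ, a receptor phosphatase that acts on MET, was instead highest in the dual-resistant library, at 4.38, 12.4 and 22.6 FPKM.

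**Figure D3:**
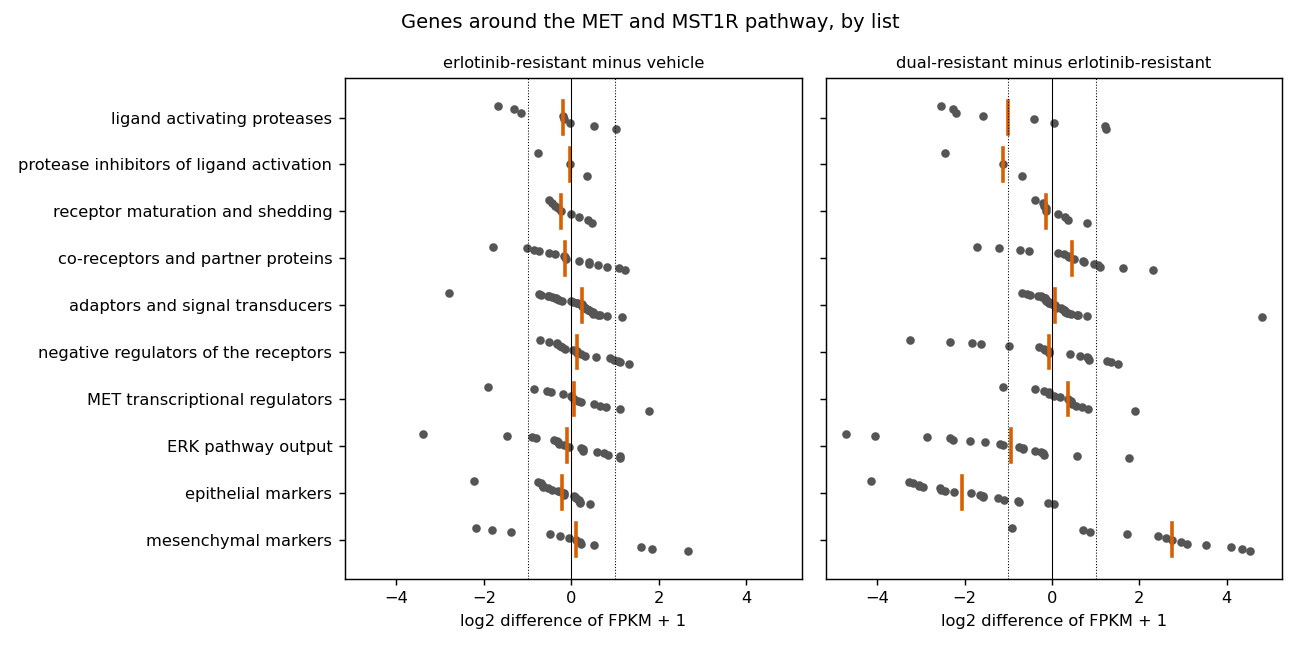
Log2 difference of FPKM + 1 (horizontal) of each measured gene (grey points) in 10 lists around the receptors (vertical), for the first step (left) and the second step (right), with 1 library per population; orange bars are list medians and dotted lines mark a log2 difference of 1. All adaptors lie between the dotted lines except PTPN11 on the left and PLCG1 on both sides, while on the right the epithelial median is -2.05 and the mesenchymal median 2.75.

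Of 15 transcription factors listed as candidate regulators of MET, all were measured, and 2 were higher and 1 lower at the first step, counts too small to set apart from the 3.81% and 6.03% of all genes. ETS1, an ETS family factor, stood at 15.7, 56.2 and 91.4 FPKM, so that it was higher in both resistant libraries, unlike MET. JUN, an AP-1 subunit, stood at 310.3, 81.7 and 112 FPKM. MITF, a basic helix-loop-helix factor, stood at 6.70, 10.1 and 18.8 FPKM, and PAX8, a paired box factor, was listed at 0 but for 2.73 FPKM after both drugs. FOSL1, an AP-1 subunit and the other factor higher at the first step, stood at 67.3, 145.7 and 111.2 FPKM and was highest in the same library as MET. SP1 stood at 16.2, 28.7 and 12.6 FPKM and was also highest there, but its first-step difference of 0.78 was within the limit. HIF1A, with a wider range than either, stood at 104, 164 and 242 FPKM and was highest in the dual-resistant library. FOSL1, SP1 and HIF1A were named after their values were seen. Any part of these factors in the MET level was not tested.

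Of 18 genes driven by ERK signalling, all measured, 9 were lower at the second step, 8 within the limit and 1 higher, beside 7.22% of all genes lower, and their median was -0.93. At the first step 2 were higher and 2 lower, beside 3.81% and 6.03% of all genes. DUSP6, the ERK phosphatase, stood at 178, 63.6 and 1.48 FPKM and DUSP5, its nuclear relative, at 60.5, 103 and 5.22. EGR1, an immediate early factor, stood at 452, 42.0 and 26.0 FPKM, and ETV4, an ETS factor induced by ERK, at 26.6, 21.3 and 2.08. DUSP6, EGR1 and ETV4 were highest in vehicle, and DUSP5 in the erlotinib-resistant library, where MET was also highest. Any part of the MET level in these differences was not tested.

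Among 58 receptor tyrosine kinase genes, MET was second to EGFR in both resistant libraries and shared that place with DDR1 in vehicle. Its share of their summed FPKM was 15.8%, 38.1% and 8.33%. EGFR (Entrez ID 1956) stood at 171, 885 and 698 FPKM, so that it exceeded MET by 1.73-fold, 1.16-fold and 7.25-fold. In vehicle, MET at 98.9 FPKM and DDR1, a collagen receptor, at 98.6 could not be ordered without replicates, and they were followed by ERBB2 (37.8) and ERBB3 (32.8). In the erlotinib-resistant library a wide gap separated MET from the next gene, EPHA2, an ephrin receptor, at 63.6 FPKM, and then DDR1 (46.4) and EPHB4 (39.9). In the dual-resistant library MET was followed by AXL, the receptor of GAS6, at 44.4 FPKM, ERBB2 (37.1) and EPHB4 (32.2). MST1R was number 11, 12 and 24 in this order, with 1.88%, 0.472% and 0.144% of the sum.

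Of the 32 receptor tyrosine kinases measured, 5 were higher and 3 lower at the first step, beside 3.81% and 6.03% of all genes. MET and EGFR were among the 5 higher. At the second step 5 were lower, MET and MST1R among them, and 6 higher, beside 7.22% and 10.1% of all genes. With a pseudocount of 0.1 FPKM the first counts became 9 higher and 5 lower and the second 8 lower, through genes at low levels. At the first step 1 was lower with libraries scaled to equal sums, and likewise with a filter of 5 FPKM, under which 2 were higher at the second. ERBB3, the kinase-impaired partner through which amplified MET can signal to PI3K, stood at 32.8, 23.3 and 3.94 FPKM, a course like that of MST1R. AXL stood at 0.555, 1.23 and 44.4 FPKM and FGFR1, a fibroblast growth factor receptor, at 0.401, 1.10 and 23.4, both opposite to MST1R. AXL was also the only measured gene on the list of other crizotinib targets. From that list, ALK stayed at or under 0.0174 FPKM, LTK, its closest relative, at or under 0.0495, and ROS1 stood at 0.721 FPKM in vehicle and was listed at 0 in both resistant libraries.

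**Figure D4:**
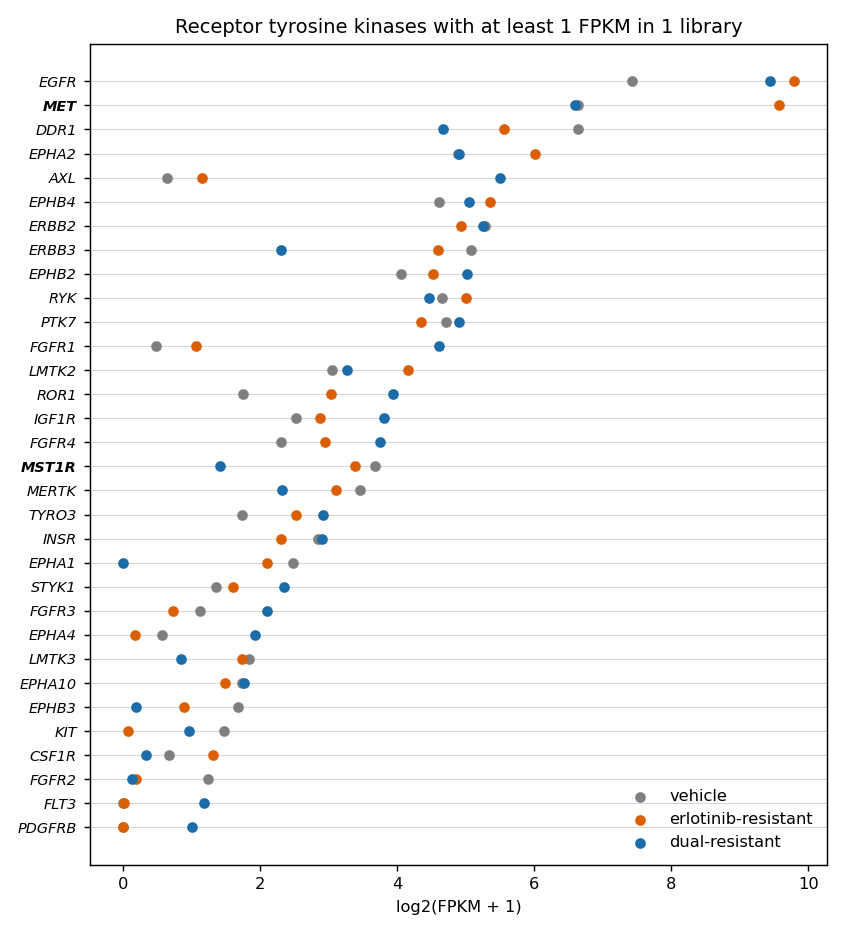
Level as log2(FPKM + 1) (horizontal) of the 32 receptor tyrosine kinase genes that reached 1 FPKM in any library (vertical, ordered by their highest level), 1 point per library. MET (bold) is second to EGFR by its highest level, with its erlotinib-resistant point (763 FPKM) far above its other points, and MST1R (bold) lies with ERBB3 and EPHA1 among the genes that are low in the dual-resistant library.

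Some of the genes around MET on chromosome 7, above all the nearest, were also higher in the erlotinib-resistant library. The 20 nearest measured genes were taken, 10 on each side and up to 7010 kb from its start. Of these, 10 were higher and none lower against vehicle, beside 3.81% and 6.03% of all genes, with a median of 1.02. With a filter of 5 FPKM in at least 1 library the median was 0.94, under the limit. Among the 10, FOXP2 (0.298, 3.44 and 0.380 FPKM) reached 1 FPKM in the erlotinib-resistant library only. AASS (0.729, 2.70 and 2.17 FPKM), also among them, did so in the resistant libraries only. CAV1 (303.9 against 26.2 FPKM) and CAV2 (192 against 29.1), which encode caveolae proteins, TES (245 against 60.1), a focal adhesion protein, and MDFIC (18.6 against 5.55) lay on one side. On the other lay CAPZA2 (275 against 58.6), an actin capping subunit, and ST7 (24.2 against 10.4). NAA38 (5.18 against 2.31, now named LSM8) and TSPAN12 (6.13 against 3.82) lay there too but were within the limit. CAV1 had a larger log2 difference than MET, at 3.48, and the 2 caveolin rows overlap in the table, so that their reads may not be separable. Gene copy number was not measured in these data.

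After both drugs the neighbours of MET were lower by less than MET itself. At the second step 6 of 20 were lower and no neighbour was higher, beside 7.22% and 10.1% of all genes. The median of the neighbours was -0.68, against -0.03 for all genes. Their lowest value was -1.78, against -2.97 for MET. CAV1 was at 279.6 FPKM there and CAV2 at 100.8, against 303.9 and 192 in the erlotinib-resistant library. Against vehicle, 3 of 20 neighbours were higher and 1 lower after both drugs, counts near the 11.0% and 10.4% of all genes. With libraries scaled to equal sums, 6 of 20 were higher than vehicle. Higher calls among all genes rose under this scaling too, to 2046 against 1470 as deposited.

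Of the 20 measured genes nearest to MST1R on chromosome 3, up to 465 kb from its start, 1 was lower and none higher at each step, with medians of -0.17 and 0.09. The lower counts are near the 6.03% and 7.22% of all genes. The nearest on one side were TRAIP, a ubiquitin ligase, at 1.77, 2.95 and 2.44 FPKM, UBA7, which activates ISG15 (5.42, 3.92 and 5.43), IP6K1, an inositol phosphate kinase (11.4, 11.2 and 16.8), and GMPPB (15.8, 16.5 and 11.8). On the other side lay MON1A, a vesicle traffic protein, at 4.22, 5.17 and 5.52 FPKM, the RNA-binding protein genes RBM6 (17.7, 12.6 and 19.3) and RBM5 (22.3, 20.1 and 18.8), and SEMA3F, a secreted semaphorin, at 3.40, 0.860 and 0.276. The ligand gene MST1 is itself 1 of the 20, and its start lies 203 kb from that of MST1R. The neighbour lower at the first step was SEMA3F and the one lower at the second was SEMA3B.

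**Figure D5:**
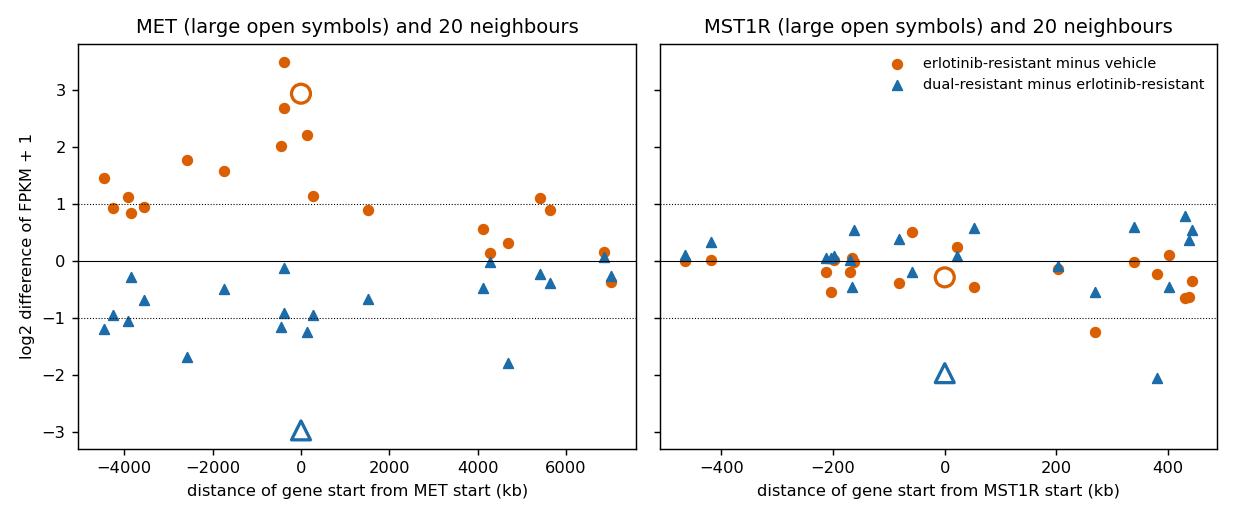
Log2 difference of FPKM + 1 (vertical) against the distance of each gene's start from the start of MET (left) or MST1R (right), in kb, for the 20 nearest measured genes and the receptor itself (large open symbols), 1 library per population; circles are erlotinib-resistant against vehicle, triangles dual-resistant against erlotinib-resistant, and dotted lines mark a log2 difference of 1. Around MET 10 of 20 neighbours lie above the upper line as circles, whereas around MST1R none does.

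The genes most like each receptor were sought over the 3 libraries by the distance between their log2(FPKM + 1) values, each gene centred on its own mean, among 12962 genes listed at 0 in no library. With 3 values per gene such a match is a description. Nearest to MET were GALNT9, a glycosyltransferase, at 0.624, 11.5 and 1.21 FPKM and a distance of 0.39, then the unnamed transcript uc001pye, NQO1, a quinone reductase, CNTN1, a neural adhesion protein, the transcript uc021sxs, ALDH1A3, an aldehyde dehydrogenase, ITPKA, an inositol trisphosphate kinase, and RPRML. NQO1 stood at 59.0, 230.1 and 61.9 FPKM and ALDH1A3 at 73.7, 304 and 88.9, and these are the 2 of the 8 that remained when at least 5 FPKM was required in every library. The rows of uc021sxs and ALDH1A3 overlap, so they are not separate matches. None of the 8 lies on chromosome 7, but under that requirement the neighbour CAPZA2 on chromosome 7 was number 8.

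MST1R had far closer matches, all within a distance of 0.11. They were SEMA3B, a secreted semaphorin, at 24.8, 21.0 and 4.29 FPKM, DAPP1, an adaptor of PI3K signalling, at 14.1, 11.8 and 2.06, RBCK1, a subunit of the linear ubiquitin ligase, at 410.2, 337.5 and 90.9, and PLLP, a membrane protein, at 30.7, 23.2 and 5.15. They were followed by SPRY4, a feedback inhibitor of receptor tyrosine kinase signalling, at 4.99, 3.94 and 0.353 FPKM, SLC22A18 at 52.1, 44.2 and 9.46, HGD, an enzyme of tyrosine breakdown, at 6.21, 4.62 and 0.358, and TNFRSF25, a death receptor, at 26.7, 21.7 and 4.28. In the dual-resistant library MST1R (1.67), SPRY4 and HGD lay near or under the 1 FPKM added for the distance. That addition draws low levels together. SEMA3B lies on chromosome 3 with its start 381 kb from that of MST1R. RBCK1, PLLP and SLC22A18 remained among the 8 when at least 5 FPKM was required in every library, a level MST1R itself did not reach in the dual-resistant library.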

How the data were processed

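RNA sequencing gave 1 library for each of 3 HCC827 populations. The authors deposited expression as FPKM per gene. Per the submitters' processing notes, TopHat 1.3 and Cufflinks 1.3 were used with GRCh37. The sources used here do not give the gene set, strandedness or settings. Missing cells (25 to 36 per library, none in MET or MST1R) stayed missing. Rows sharing a symbol were summed (415 symbols), and differences were taken as log2(FPKM + 1) with no test. Table starts were read as counted from 0, since 3995 rows match their RefSeq gene length that way and 439 the other way, and coordinates are given from 1. Start-site sequences are RefSeq's, for 2 of 2 receptors, and the motifs were chosen after the values were seen.

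Depth was approximated from percentile 1 of FPKM times length over single-exon genes of 1000 to 5000 bases, chosen by their symbol in GENCODE 29, which is on another build. Transcript lengths came from that annotation. The members, gene lists and alternatives were chosen with earlier results of these data known. By rule, the genes named were both receptors, HGF, MST1 and EGFR, and up to 4 members per list with the widest range over the libraries. The rule added the 5 highest receptor kinases per library, 4 neighbours per side and the 8 nearest patterns. Other genes were named outside this rule, among them NKX2-1, SFTPC, HGFAC, CD3E, MS4A1, PDGFRA, ALK, LTK, ROS1, PLAT, KLK4, FOSL1, SP1 and HIF1A. One listed gene is not reported here. Calculations were tested on simulated data and run in Python 3.11.15 with pandas 2.3.3.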

Additional observations from a re-analysis of the deposited data

How the results depend on the processing

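No paired analysis was possible because each population has 1 library, and for the same reason no replicate could be left out. Over a pseudocount of 0.1 FPKM, 2 scalings, the highest instead of the summed row and a limit of 1.5-fold, the MET difference ranged from 2.93 to 3.11 (erlotinib-resistant minus vehicle), -2.99 to -2.88 (dual-resistant minus erlotinib-resistant) and -0.04 to 0.23 (dual-resistant minus vehicle), and that of MST1R from -0.31 to -0.13, -2.43 to -1.92 and -2.75 to -2.05, with the same calls throughout. The counts over all genes depended on the limit: at 1.5-fold, 1661 were higher and 1917 lower (erlotinib-resistant minus vehicle), 2473 and 2266 (dual-resistant minus erlotinib-resistant) and 2767 and 2751 (dual-resistant minus vehicle), because a lower limit admits more genes. A pseudocount of 0.1 FPKM raised the 510 genes higher in the first comparison to 856. Scaling to the same sum moved the share of higher among called genes from 38.7% to 53.6% (erlotinib-resistant minus vehicle) and from 51.3% to 66.0% (dual-resistant minus vehicle), and the median of all genes by 0.14 and 0.23. The ratio of MET to MST1R in the dual-resistant library went from 57.7 to 36.4 with 1 FPKM added to both. Of 860 values for gene lists, neighbours and like patterns, 779 stayed within 1.5 times or on their side of the limit, 70 counts moved by more, and 11 medians crossed the limit. Depth limits MST1R most in the dual-resistant library.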
